A study of Rattus norvegicus with 8 samples.

Results

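Immediate early genes are the genes that a cell transcribes first after a stimulus, before any new protein has been made. The 54 members named here, chosen by name as immediate early and activity-regulated genes, were looked up as rows of the gene table, and 45 of them were found among its 10692 rows. The other 9 (Fosb, Egr2, Egr3, Egr4, Npas4, Nr4a1, Nr4a3, Dusp2 and Klf2) were not analysed here. Every row of the table had a mean of at least 1 RPKM in both groups, RPKM being reads per kilobase of gene scaled to library depth, a level that allows genes to be compared.

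The cells were dissociated pancreatic islet cells of Sprague Dawley rats aged 10 days. The inhibitor group (n = 4 libraries) received 3 locked nucleic acid (LNA) inhibitors of 20 pmol each, 60 pmol in all, against tiRNA-5 fragments of the histidine tRNA HisGTG and the glutamate tRNAs GluCTC and GluTTC. The control group (n = 4 libraries) received 60 pmol of a control LNA. Such fragments are the front part of a tRNA after it is cut in its anticodon loop. Cells of both groups were isolated with collagenase, separated with trypsin, cultured with serum and lipofected. The tiRNA-5 fragments themselves are not measured by these values, so their inhibition was not checked here. Whether replicate libraries stem from different litters or cultures is not labelled, and a p-value here measures the spread between libraries, which may be technical.

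In beta cells, calcium entry, cAMP and the MAP kinase ERK carry a stimulus to the nucleus, where CREB and serum response factor with its partners switch on genes that wait with poised promoters. Many of the products are transcription factors (FOS, JUN, EGR), and others are brakes that shut the signal down again (DUSP phosphatases, SIK1, the mRNA decay factor ZFP36). In islets these genes are known to respond to glucose and incretins, and in many tissues also to serum and to the handling of cells.

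Reads in the listed genes numbered between 16035607 and 19049788 per library, and the members had between 41 and 15401 reads per library with a median of 522.5. Of 10 beta-cell markers 9 were listed, led by Ins1 with 100678 to 158385 RPKM in inhibitor and 126405 to 162858 RPKM in control libraries. Of 23 markers of mesenchymal and stellate cells, which are also rich in immediate early transcripts, 18 were listed, and their sum ranged from 3788 to 5940 RPKM in inhibitor and from 3313 to 7137 RPKM in control libraries. Sums of the 3 endothelial markers listed out of 8 stayed between 4.11 and 10.1 RPKM in inhibitor and between 6.56 and 11.5 RPKM in control libraries. The 3 delta-cell markers listed out of 4 summed to 549 ± 95.05 RPKM in inhibitor and 787 ± 209 RPKM in control cells (SD, n = 4). Nearly all of this was Sst, at 397 to 599 RPKM in inhibitor and 583 to 1039 RPKM in control libraries, highest in control 1. Hhex had 2.96 to 3.44 and 2.92 to 4.58 RPKM, and Rbp4 13.0 to 14.3 and 13.3 to 16.7 RPKM, in inhibitor and control libraries. The part of delta cells in the results below was not tested. Inhibitor 4 stood apart in the Y-linked genes Eif2s3y and Kdm5d, at 0.257 and 0.120 RPKM, against 6.86 to 18.8 and 2.77 to 8.73 RPKM in the other libraries. It did not do so in the third Y-linked gene listed, Ddx3y, where it had the highest value, 1.42 RPKM against 0.909 to 1.39 RPKM in the other libraries.

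No immediate early gene passed the test, and most lay slightly lower in inhibitor cells. On the log2(RPKM + 1) scale, 34 of the 45 members had a negative and 11 a positive difference (inhibitor minus control), with a median of -0.11 over the members and 0.02 over the 10688 rows tested. Of the members 75.6% were negative, against 45.7% of all rows. At an adjusted p under 0.05 by limma, 0 of 45 members were called, as were 0.0% of all rows, and the smallest adjusted p was 0.541. At an unadjusted p under 0.05 there were 4 members, Dusp1, Arc, Csrnp1 and Sik1, all lower in inhibitor cells. These 4 are 8.89% of the members, and 8.98% of all rows reached that level in either direction, so the number of members is close to the background, while 3.46% of all rows reached it on the lower side. On the higher side there were 0 members, against 5.52% of all rows. Limma-voom on the reads behind the RPKM likewise called 0 members. The number on the lower side was 0 without inhibitor 1 (0.0% of members, against 1.45% of all rows in the same fit) and 8 without control 1 (17.8%, against 6.31%). It was 1 (2.22%) without inhibitor 2, control 2 or control 3, against 4.78%, 1.46% and 3.58% of all rows. Without inhibitor 3 or inhibitor 4 it was 5 (11.1%), against 3.98% and 3.14%, and without control 4 it was 6 (13.3%), against 3.95%. In the authors' deposited table no member had an adjusted p under 0.05, whereas 6 of all its rows (0.0561%) did. By the authors' unadjusted p, 5 members (11.1%) were under 0.05 (Dusp1, Arc, Csrnp1, Sik1 and Fos), against 7.49% of all rows.

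**Figure D1:**
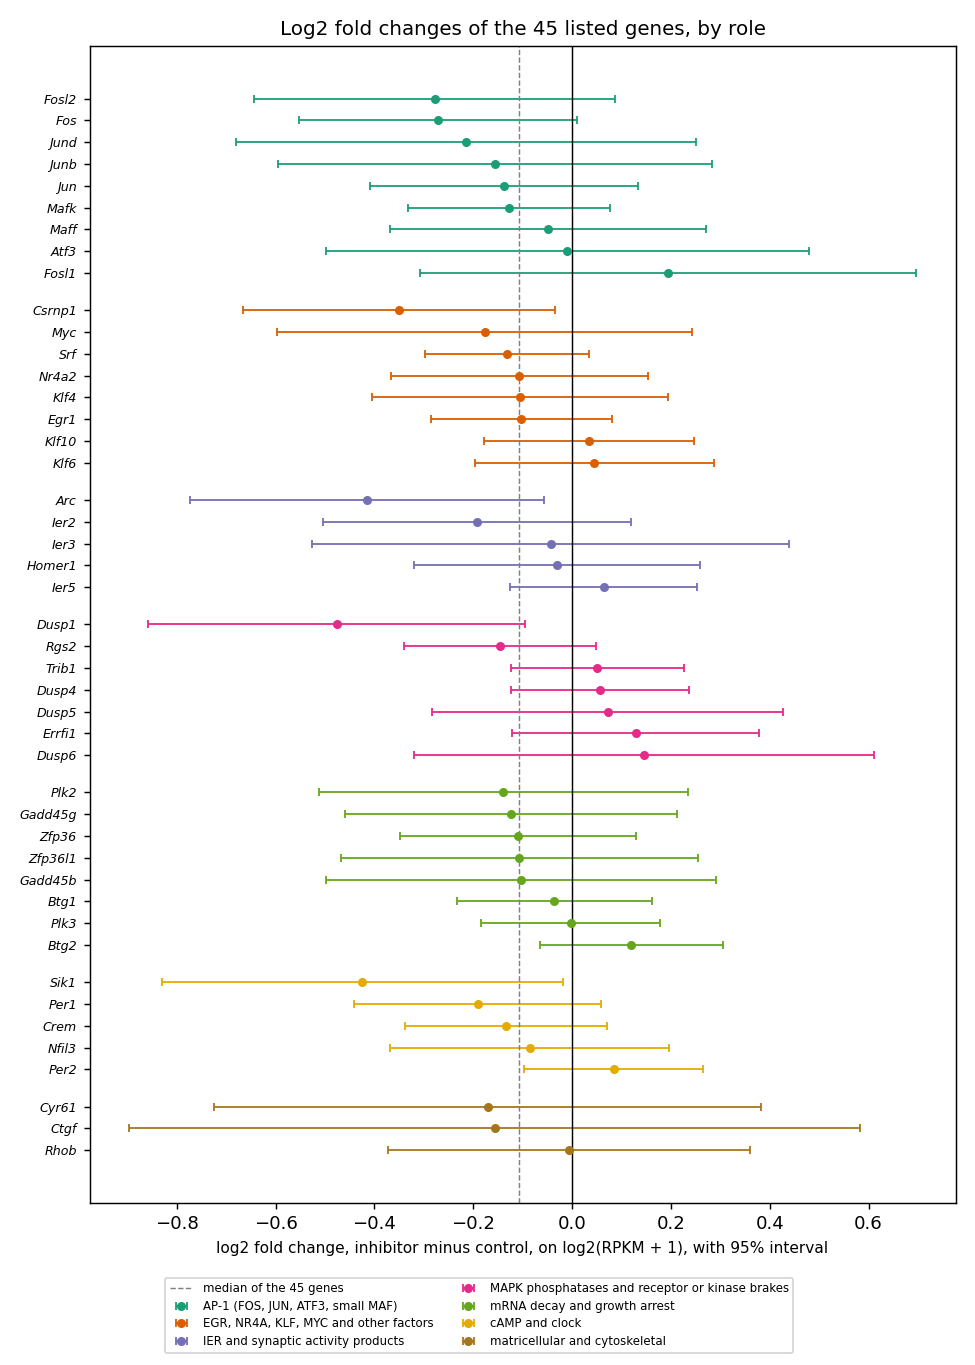
Log2 fold change (inhibitor minus control, log2(RPKM + 1) scale) of each of the 45 members with its 95% confidence interval by limma, grouped by role. Most points lie left of 0, and the intervals of Dusp1, Arc, Csrnp1 and Sik1 alone leave out 0, before any adjustment for the 10688 rows tested.

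Promoter sequence was examined to see what members with similar values share. RefSeq promoters (build GRCr8, whereas the deposited values rest on rn6; 250 bases before to 50 after the start) were in the reference table for 35 of the 45 members, 2 of them under newer symbols, and not for Arc, Csrnp1 or Fos. In Btg1 and Rgs2 those 50 bases open with ATG, so the start used there may be that of the coding sequence. The cAMP response element CRE (TGACGTCA) was in 6 of these 35 promoters (17.1%) and in 3.18% of the 9332 promoters of genes in the deposited table. These were Dusp1, Ier2, Jund, Plk2, Maff and Btg2, of which 5 had a negative log2 fold change, as had 22 of the 29 members without a CRE. The CArG box, to which serum response factor binds, was in 5 (14.3%), those of Srf, Egr1, Zfp36, Dusp5 and Klf6, against 1.36% of that background. The EGR motif (GCGNGGGCG) was in 11 (31.4%, against 10.8%), the AP-1 motif (TGANTCA) in 1 (2.86%, against 4.63%) and the NR4A motif NBRE (AAAGGTCA) in 0 (against 0.825%). Both strands were searched, and a match is a description of these letters only. The median log2 fold change was -0.17 for the 6 members with a CRE and -0.11 for the 29 without, and -0.10 for the 5 with a CArG box and -0.11 for the 30 without.

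The promoters of 5 members are shown for the contrast between the largest difference with a CRE (Dusp1), a smaller one with a CRE (Ier2), a large one without a full CRE (Sik1), the gene of the CArG-binding factor itself (Srf) and the positive member with a CRE (Btg2). Capitals mark a CRE, a CArG box or an EGR motif found on either strand, and the matches do not overlap. The CRE starts 124 bases before the start in Dusp1, 66 in Ier2 and 201 in Btg2, the EGR motif 152 bases before it in Sik1 and 166 in Btg2, and Srf has an EGR motif 100 and CArG boxes 81 and 61 bases before it. The regions are chr10:17184603-17184902 (plus strand) for Dusp1, chr19:40399123-40399422 (plus) for Ier2, chr20:9958597-9958896 (minus) for Sik1, chr9:21923826-21924125 (plus) for Srf and chr13:48087641-48087940 (minus) for Btg2.
Dusp1: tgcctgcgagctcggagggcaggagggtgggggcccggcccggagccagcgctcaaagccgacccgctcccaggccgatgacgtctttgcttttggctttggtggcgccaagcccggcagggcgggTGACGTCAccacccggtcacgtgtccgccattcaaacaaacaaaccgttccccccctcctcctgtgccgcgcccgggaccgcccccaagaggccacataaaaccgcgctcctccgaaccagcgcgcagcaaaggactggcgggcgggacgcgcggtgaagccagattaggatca
Ier2: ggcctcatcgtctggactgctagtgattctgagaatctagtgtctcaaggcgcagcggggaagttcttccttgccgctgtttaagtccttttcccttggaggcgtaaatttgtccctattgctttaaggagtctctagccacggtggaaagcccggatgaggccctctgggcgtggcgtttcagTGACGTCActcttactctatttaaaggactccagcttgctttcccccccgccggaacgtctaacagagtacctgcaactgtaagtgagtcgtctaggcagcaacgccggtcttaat
Sik1: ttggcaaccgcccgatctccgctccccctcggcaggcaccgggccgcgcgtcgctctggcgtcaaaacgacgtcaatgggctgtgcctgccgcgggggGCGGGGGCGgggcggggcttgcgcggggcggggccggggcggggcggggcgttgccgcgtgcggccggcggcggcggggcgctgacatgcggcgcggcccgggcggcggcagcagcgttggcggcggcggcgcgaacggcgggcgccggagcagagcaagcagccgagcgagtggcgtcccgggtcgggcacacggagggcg
Srf: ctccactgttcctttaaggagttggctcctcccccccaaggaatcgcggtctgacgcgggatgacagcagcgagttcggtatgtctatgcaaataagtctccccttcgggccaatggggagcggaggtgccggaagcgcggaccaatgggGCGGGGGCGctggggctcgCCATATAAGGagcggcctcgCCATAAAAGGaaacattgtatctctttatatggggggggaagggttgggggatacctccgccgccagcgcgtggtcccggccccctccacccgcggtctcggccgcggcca
Btg2: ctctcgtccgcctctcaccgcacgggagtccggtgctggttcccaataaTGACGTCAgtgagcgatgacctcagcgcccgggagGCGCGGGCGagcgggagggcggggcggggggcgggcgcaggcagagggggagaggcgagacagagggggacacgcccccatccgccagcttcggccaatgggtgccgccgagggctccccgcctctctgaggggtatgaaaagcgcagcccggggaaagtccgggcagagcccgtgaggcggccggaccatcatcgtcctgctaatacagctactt

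On the log2(RPKM + 1) scale the phosphatase Dusp1 had the largest difference of all members. As a ratio of mean RPKM, inhibitor over control, Dusp1 was at 0.722, while Arc at 0.690 and Sik1 at 0.719 were slightly lower. DUSP1 removes phosphate from the MAP kinases ERK, JNK and p38 and thereby ends the signal that induced it. Its level was 15.5, 13.5, 22.8 and 23.3 RPKM in inhibitor libraries 1 to 4, against 23.6, 29.5, 28.3 and 22.6 RPKM in control libraries 1 to 4. Inhibitor 1 and inhibitor 2 lay below all controls, whereas inhibitor 3 and inhibitor 4 reached the lower edge of the control range. The means were 18.8 ± 4.98 RPKM in inhibitor and 26.0 ± 3.43 RPKM in control cells (SD, n = 4 each), a log2 fold change of -0.48 ± 0.17 (SE) with an adjusted p of 0.541 by limma. Without each library in turn it stayed between -0.59 and -0.34.

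Of the other brakes on MAP kinase and receptor signalling only Rgs2 had a negative difference, and the 95% intervals of all of them included 0. Errfi1, an inhibitor of the EGF receptor, had 31.5, 37.8, 29.5 and 43.6 RPKM in inhibitor libraries and 33.4, 30.1, 31.8 and 33.3 RPKM in control libraries. The controls were tightly grouped and the inhibitor libraries lay on both sides of them, with a log2 fold change of 0.13 (95% interval -0.12 to 0.38) that was 0.028 without inhibitor 4. Dusp4, a phosphatase of nuclear ERK, had 3.86, 3.68, 3.23 and 3.51 RPKM in inhibitor and 3.77, 3.45, 3.21 and 3.15 RPKM in control libraries, 0.06 on the log2 scale (95% interval -0.12 to 0.24). Trib1, a pseudokinase that binds the COP1 ubiquitin ligase, had 10.3, 10.0, 10.4 and 8.38 RPKM in inhibitor and 9.17, 9.18, 10.0 and 9.09 RPKM in control libraries. In both genes the groups overlapped over most of their range. Dusp5 and Dusp6, ERK phosphatases of the nucleus and of the cytoplasm, averaged 8.31 ± 2.20 and 4.88 ± 1.16 RPKM in inhibitor cells, against 7.70 ± 0.870 and 4.42 ± 1.44 RPKM in control cells (SD, n = 4). Rgs2, which speeds up the shutdown of Gq proteins, averaged 6.596 ± 0.730 RPKM in inhibitor and 7.39 ± 0.545 RPKM in control cells (SD, n = 4). Of the 7 members in this role 5 were positive and 2, Dusp1 and Rgs2, negative, with a median log2 fold change of 0.06.

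**Figure D2:**
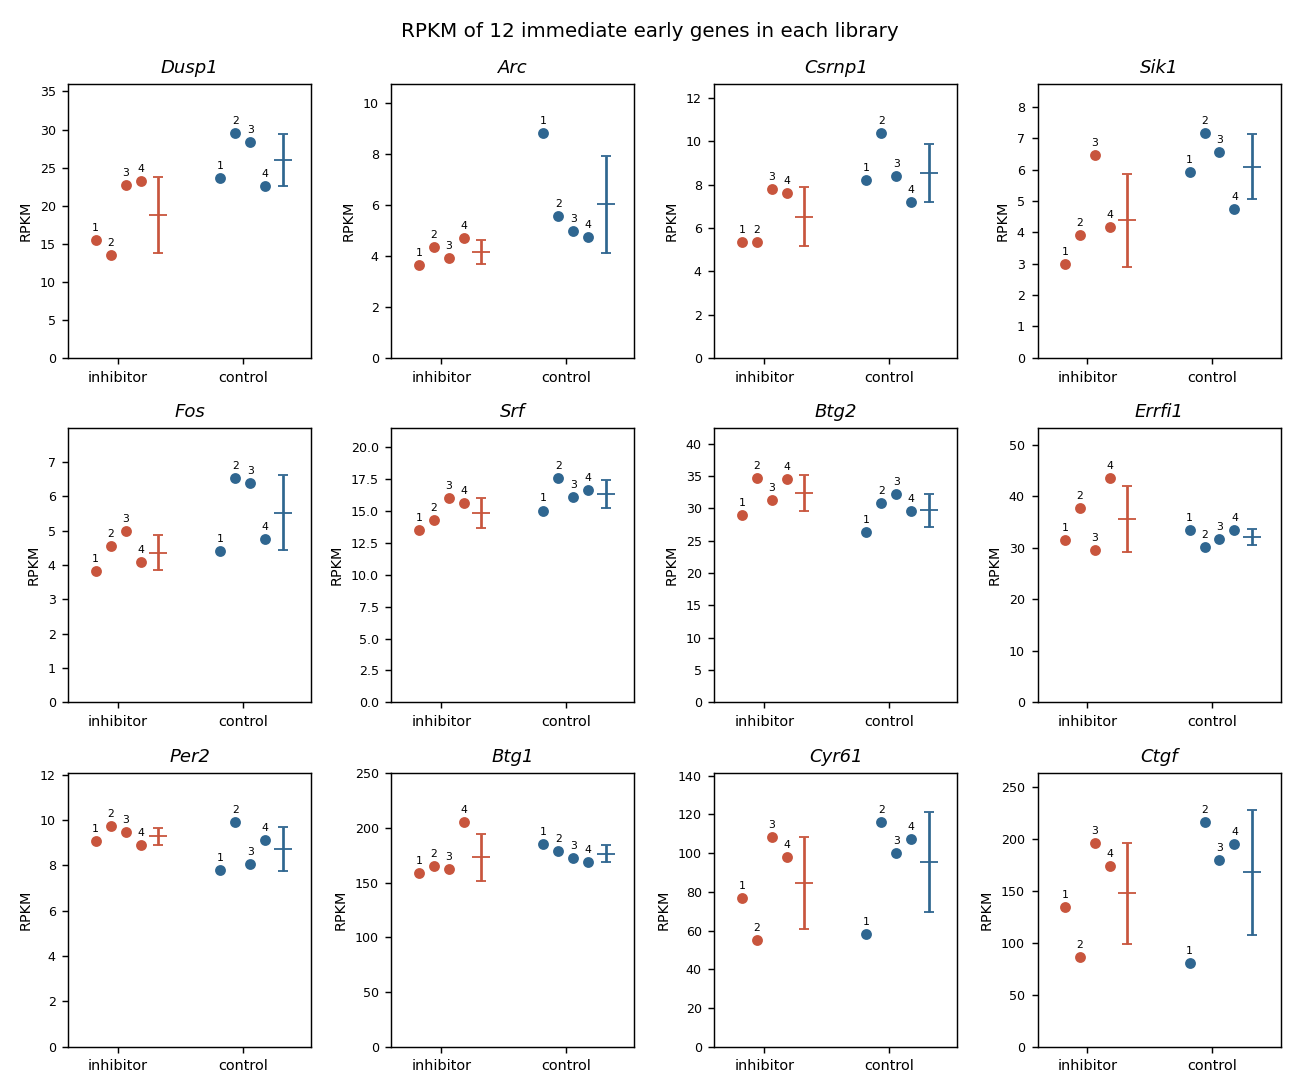
RPKM of 12 members in each library (numbered dots, axis from 0), with the mean and SD of each group of 4 beside them. Dusp1 and Csrnp1 are low in inhibitor libraries 1 and 2 only, Arc is highest in control 1, and Ctgf and Cyr61 are low in inhibitor 2 and control 1.

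Arc and Csrnp1 were the next members by p. Arc encodes a capsid-forming protein known for its induction by activity in neurons. It had 3.66, 4.35, 3.92 and 4.70 RPKM in inhibitor libraries 1 to 4, against 8.83, 5.55, 4.99 and 4.73 RPKM in control libraries 1 to 4. The groups did not overlap, although inhibitor 4 and control 4 were nearly equal and control 1 stood far above the rest. Such separation on the lower side was found for this 1 member of 45, or 2.22%, and for 1.61% of all rows. The log2 fold change was -0.41 ± 0.16 (SE; adjusted p = 0.541 by limma), and it was -0.24 without control 1.

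Csrnp1, a nuclear protein first found as induced by AXIN1, had 5.34, 5.34, 7.81 and 7.62 RPKM in inhibitor libraries, against 8.20, 10.4, 8.38 and 7.20 RPKM in control libraries. As with Dusp1, inhibitor 1 and inhibitor 2 were below all controls and the other inhibitor libraries were not. Its log2 fold change was -0.35 ± 0.14 (SE; adjusted p = 0.541 by limma), from -0.43 to -0.26 without each library in turn.

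The remaining products of the IER and synaptic group differed by less than their spread. Ier2, a nuclear protein induced by growth factors, had 4.87, 5.82, 6.08 and 5.40 RPKM in inhibitor and 4.70, 8.24, 7.19 and 6.16 RPKM in control libraries. Ier3, which affects survival under stress, had 25.1, 27.3, 30.9 and 43.9 RPKM in inhibitor and 20.8, 39.5, 35.2 and 36.5 RPKM in control libraries. Control 1 was the lowest library of both genes. Ier5, a regulator of heat shock factor, had 10.4, 8.06, 9.22 and 9.95 RPKM in inhibitor and 8.49, 9.46, 8.42 and 9.33 RPKM in control libraries, 0.06 on the log2 scale (95% interval -0.13 to 0.25). Homer1, a scaffold of the synapse, was the member of lowest level, at 1.15 ± 0.350 RPKM in inhibitor and 1.18 ± 0.212 RPKM in control cells (SD, n = 4).

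Members of the cAMP and clock group lay lower except for Per2. Sik1, a kinase that is induced by cAMP and in turn holds back the CREB coactivators CRTC, had 2.99, 3.92, 6.47 and 4.17 RPKM in inhibitor libraries, against 5.93, 7.17, 6.57 and 4.73 RPKM in control libraries. Inhibitor libraries 1, 2 and 4 were below all controls, and inhibitor 3 was inside their range. The log2 fold change was -0.42 ± 0.18 (SE; adjusted p = 0.545 by limma), from -0.59 to -0.29 without each library in turn. Crem, whose ICER product represses cAMP-driven transcription, had 8.79, 9.67, 8.92 and 11.4 RPKM in inhibitor and 10.9, 10.95, 11.4 and 9.49 RPKM in control libraries. Per1, a repressor of the circadian clock that cAMP and glucocorticoids induce, averaged 7.12 ± 0.967 RPKM in inhibitor and 8.27 ± 1.07 RPKM in control cells (SD, n = 4). The groups of both genes overlapped, with log2 fold changes of -0.13 for Crem and -0.19 for Per1 (adjusted p = 0.613 and 0.586 by limma). Its paralog Per2 had 9.06, 9.73, 9.45 and 8.87 RPKM in inhibitor and 7.81, 9.91, 8.07 and 9.13 RPKM in control libraries, 0.08 on the log2 scale (95% interval -0.10 to 0.27). Nfil3, a bZIP repressor of clock output genes, had 6.93, 7.19, 7.56 and 8.75 RPKM in inhibitor and 6.22, 9.26, 7.70 and 9.67 RPKM in control libraries. The controls enclosed all inhibitor values, with control 1 lowest and control 4 highest.

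AP-1 is the dimer of a FOS and a JUN protein, and 8 of its 9 listed genes, partners of the ATF and small MAF families included, had negative log2 fold changes. Fos itself was expressed at a low level, with 3.83, 4.55, 4.99 and 4.09 RPKM in inhibitor libraries, against 4.40, 6.55, 6.38 and 4.76 RPKM in control libraries. Control 2 and control 3 lay above all inhibitor libraries, and control 1 and control 4 were inside their range. Its log2 fold change was -0.27 ± 0.13 (SE; adjusted p = 0.554 by limma). Fosl2 averaged 4.86 ± 0.899 RPKM in inhibitor and 6.18 ± 1.72 RPKM in control cells (SD, n = 4), where the difference of -0.28 on the log2 scale became -0.12 without control 2. Fosl1, the one positive member, had 3.39, 2.87, 3.28 and 3.65 RPKM in inhibitor and 1.21, 3.92, 2.77 and 3.79 RPKM in control libraries. Control 1 was far below the rest, and without it the log2 fold change of 0.19 was -0.06.

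JUN family mRNA exceeded FOS family mRNA in every library. The sum of Jun, Junb and Jund was 28.1 ± 4.64 RPKM in inhibitor and 32.1 ± 7.22 RPKM in control cells, and that of Fos, Fosl1 and Fosl2 12.5 ± 1.304 RPKM in inhibitor and 14.6 ± 3.41 RPKM in control cells (SD, n = 4). Junb, often an antagonist of JUN, had 8.45, 14.7, 12.3 and 11.3 RPKM in inhibitor and 8.84, 17.3, 13.1 and 13.8 RPKM in control libraries. Jund, the member of the family that is on in resting cells, had 9.25, 11.5, 11.9 and 6.21 RPKM in inhibitor and 7.77, 13.6, 13.1 and 10.97 RPKM in control libraries. Both genes overlapped widely between the groups, with 95% intervals of -0.60 to 0.28 and -0.68 to 0.25 on the log2 scale. Jun averaged 6.63 ± 0.700 RPKM in inhibitor and 7.46 ± 1.39 RPKM in control cells (SD, n = 4). Mafk, a small MAF protein without an activation domain, had 9.94, 10.8, 13.0 and 12.5 RPKM in inhibitor and 12.9, 13.2, 13.2 and 11.4 RPKM in control libraries. Its relative Maff averaged 4.38 ± 0.733 RPKM in inhibitor and 4.59 ± 0.928 RPKM in control cells. The stress factor Atf3 averaged 1.51 ± 0.467 RPKM in inhibitor and 1.58 ± 0.707 RPKM in control cells (SD, n = 4).

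Among the zinc finger, nuclear receptor and other factors, 6 of 8 were negative. Srf, the serum response factor that itself drives many immediate early genes, had 13.5, 14.3, 16.0 and 15.6 RPKM in inhibitor libraries, against 15.0, 17.6, 16.1 and 16.7 RPKM in control libraries. Inhibitor 1 and inhibitor 2 were again below all controls, with a small log2 fold change of -0.13 ± 0.07 (SE; adjusted p = 0.580 by limma). Egr1, a zinc finger factor that glucose induces in beta cells, had 11.2, 11.2, 13.3 and 10.4 RPKM in inhibitor and 13.2, 11.4, 12.6 and 12.5 RPKM in control libraries, -0.10 on the log2 scale (95% interval -0.29 to 0.08). Klf10, a target of TGF-beta, had 17.2, 20.1, 14.6 and 17.6 RPKM in inhibitor and 17.3, 15.8, 15.7 and 18.6 RPKM in control libraries, 0.03 on the log2 scale (95% interval -0.18 to 0.25). Neither Egr1 nor Klf10 differed beyond the spread. Myc, the driver of growth, averaged 4.75 ± 1.12 RPKM in inhibitor and 5.56 ± 1.54 RPKM in control cells. Klf4, a brake on proliferation, averaged 5.61 ± 0.335 RPKM in inhibitor and 6.21 ± 1.40 RPKM in control cells (SD, n = 4). Klf6 averaged 7.99 ± 1.17 RPKM in inhibitor and 7.68 ± 0.773 RPKM in control cells. Nr4a2, an orphan nuclear receptor, averaged 2.70 ± 0.396 RPKM in inhibitor and 2.99 ± 0.527 RPKM in control cells (SD, n = 4).

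Genes of mRNA decay and growth arrest held the member of highest level. Btg1, an antiproliferative protein that recruits the CCR4-NOT deadenylase, had 159, 165, 162 and 205 RPKM in inhibitor and 186, 179, 173 and 169 RPKM in control libraries. Inhibitor libraries 1 to 3 lay below all controls and inhibitor 4 above them. Without inhibitor 4 the log2 fold change of -0.04 was -0.12. Its paralog Btg2, a target of p53, had 29.0, 34.8, 31.3 and 34.6 RPKM in inhibitor and 26.3, 30.8, 32.3 and 29.6 RPKM in control libraries. Of the 11 positive members Btg2 had the smallest p, with a log2 fold change of 0.12 ± 0.08 (SE; adjusted p = 0.615 by limma). It was between 0.064 and 0.17 without each library in turn, lowest without control 1.

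Gadd45g, a stress sensor upstream of p38 and JNK, had 29.7, 38.0, 36.2 and 35.5 RPKM in inhibitor and 27.6, 48.1, 37.2 and 41.6 RPKM in control libraries, so that the controls enclosed all inhibitor values. Gadd45b averaged 7.25 ± 1.32 RPKM in inhibitor and 7.98 ± 2.07 RPKM in control cells. Zfp36, which binds AU-rich elements and speeds the decay of the mRNAs that carry them, averaged 19.3 ± 2.05 RPKM in inhibitor and 21.0 ± 2.80 RPKM in control cells. Its paralog Zfp36l1 averaged 7.72 ± 1.75 RPKM in inhibitor and 8.38 ± 1.59 RPKM in control cells (SD, n = 4). The polo-like kinases Plk2 and Plk3 averaged 2.88 ± 0.933 and 14.8 ± 1.27 RPKM in inhibitor cells, against 3.22 ± 0.575 and 14.9 ± 1.27 RPKM in control cells (SD, n = 4). For each of these 8 genes the difference of the means was smaller than the SD within at least 1 of the groups.

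Ctgf and Cyr61, secreted matricellular proteins and classic targets of YAP, had the widest spread among the abundant members. Ctgf had 134, 86.4, 196 and 174 RPKM in inhibitor and 80.4, 216, 180.1 and 196 RPKM in control libraries. Cyr61 had 76.6, 55.3, 109 and 97.9 RPKM in inhibitor and 58.3, 116, 99.9 and 107 RPKM in control libraries. In both genes control 1 and inhibitor 2 were the lowest libraries and control 2 the highest. Rhob, an endosomal small GTPase, had 30.7, 25.2, 28.1 and 33.4 RPKM in inhibitor and 20.6, 32.9, 28.7 and 37.8 RPKM in control libraries. The 95% interval of the log2 fold change was -0.90 to 0.58 for Ctgf and -0.72 to 0.38 for Cyr61, so neither the direction nor the size of a difference was settled.

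The mesenchymal and stellate markers varied between the libraries in a similar order. On the log2(RPKM + 1) scale centred per gene, the mean of the 18 markers was -0.07, -0.40, 0.15 and 0.15 in inhibitor libraries 1 to 4 and -0.66, 0.37, 0.13 and 0.32 in control libraries 1 to 4. The median of the 45 members was -0.14, -0.11, 0.03 and 0.04 in inhibitor libraries and -0.19, 0.24, 0.05 and 0.05 in control libraries. Control 1 was lowest and control 2 highest in both. Of the 18 markers 14 had a negative log2 fold change, with a median of -0.08. In a fit with the marker mean as a covariate the median log2 fold change of the members was -0.06, and 31 were negative. The SE of Ctgf was then 0.08 in place of 0.33, with a log2 fold change of -0.03 in place of -0.16. For Dusp1, Arc, Csrnp1 and Sik1 the values with the covariate were -0.44, -0.46, -0.33 and -0.41 (adjusted p between 0.314 and 0.369 by limma). At an unadjusted p under 0.05 the same fit had these 4 members on the lower side and 1, Fosl1 at 0.27, on the higher side. In either direction 1416 of the 10688 rows reached that level. In bulk RNA a smaller number of cells of a type and less RNA per cell cannot be told apart.

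**Figure D3:**
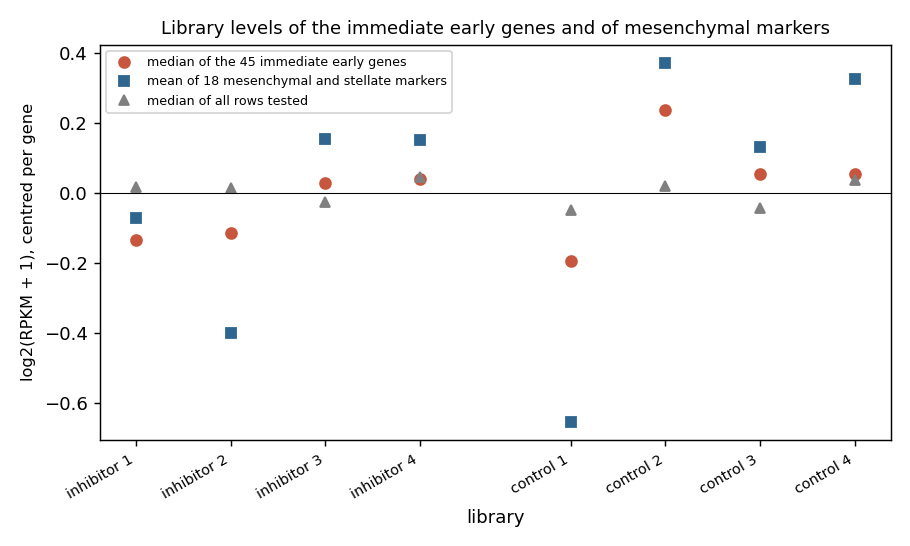
Level of each library on the log2(RPKM + 1) scale, centred per gene over 8 libraries: the median of the 45 members (circles), the mean of 18 mesenchymal and stellate markers (squares) and the median of all 10688 rows (triangles). Control 1 (-0.19) is the lowest and control 2 (0.24) the highest library for the members, and the markers have the same extremes.

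Single libraries stood at the extremes for many members. Control 2 was the highest of the 8 libraries for 23 of 45 members (51.1%), against 16.0% of all rows, and the lowest for 0. Among the 23 were Fos, Fosl1, Fosl2, Jun, Junb, Jund, Ier2, Dusp1, Sik1, Ctgf and Cyr61. Control 1 was the lowest library for 15 members (33.3%), against 28.2% of all rows, a share close to the background. Within the 4 controls, control 2 was highest for 29 members (64.4%, against 24.9% of all rows) and control 1 lowest for 27 (60.0%, against 40.8%). Inhibitor 1 and inhibitor 2 were each the lowest library for 11 members (24.4%), against 7.35% and 8.64% of all rows, and they were the lowest 2 of the inhibitor libraries for 16 members (35.6%, against 15.8%). These counts were chosen after the values were seen. The SD on the log2 scale was larger in controls for 26 members (57.8%), close to the 56.6% of all rows. The SD within groups had a median of 0.22 over the members and 0.13 over all rows, and the half-width of the 95% interval of a log2 fold change 0.30 over the members and 0.20 over all rows. The median of the mean level was 8.001 RPKM for the members and 9.96 RPKM for all rows. The median log2 fold change of the members was -0.02 without control 2 and -0.17 without control 1.

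**Figure D4:**
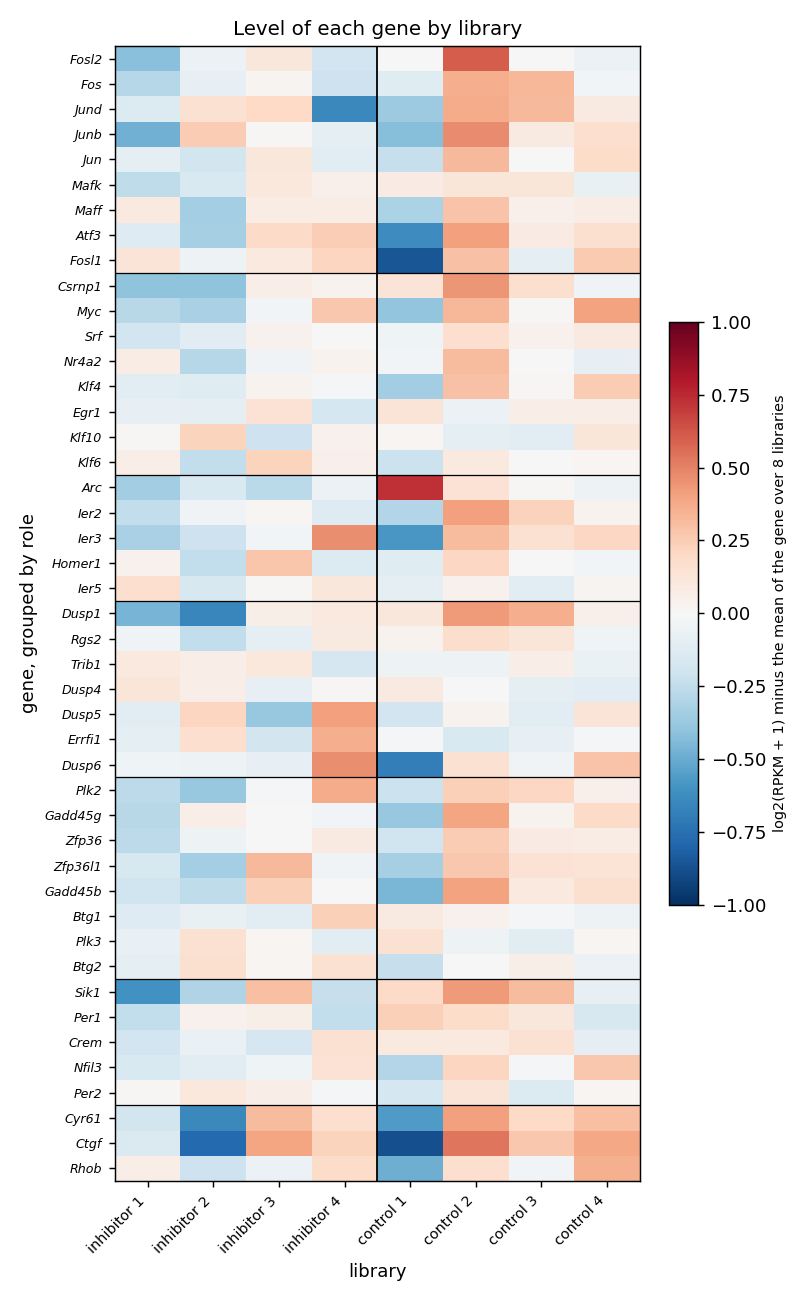
Level of each of the 45 members (rows, grouped by role) in the 4 inhibitor and 4 control libraries (columns), as log2(RPKM + 1) minus the mean of the gene over 8 libraries. The control 2 column is mostly red (highest library of 23 members), and the columns of control 1, inhibitor 1 and inhibitor 2 are mostly blue (lowest library of 15, 11 and 11 members).

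Other genes of the same pathways were read from lists chosen by function, and 0 of their members passed the test by limma. Among the partners of serum response factor and YAP with their cytoskeletal targets, 20 of 21 had a negative log2 fold change. Of all rows 45.7% were negative. The median of the list was -0.14, and 1 of its genes was at an unadjusted p under 0.05, against 8.98% of all rows. The lists below had 2 of 28 (kinase cascade), 2 of 36 (calcium and cAMP relay) and 4 of 37 (other activity-regulated genes) at that level. So were 2 of 18 clock partners, 2 of 17 mRNA decay partners, 0 of 18 feedback regulators and 0 of 15 AP-1 partners. Mkl1, the actin-sensing coactivator of serum response factor, had 5.34, 5.82, 7.32 and 5.71 RPKM in inhibitor and 6.38, 9.44, 7.51 and 7.64 RPKM in control libraries. Ajuba, a LIM protein of cell junctions that restrains the Hippo kinases, averaged 8.08 ± 1.95 RPKM in inhibitor and 10.6 ± 1.98 RPKM in control cells (SD, n = 4). Many of these genes are abundant in mesenchymal cells, whose markers are given above, and the part of those cells in these values was not tested.

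The kinase cascade upstream showed no common direction, with 13 of 28 genes positive and 15 negative (median -0.01). Hras had 7.23, 7.96, 7.26 and 7.64 RPKM in inhibitor and 8.53, 9.66, 8.61 and 8.12 RPKM in control libraries. Rps6ka3, the kinase RSK2 downstream of ERK, averaged 17.2 ± 0.545 RPKM in inhibitor and 15.4 ± 0.623 RPKM in control cells (SD, n = 4). Both genes, the 2 of smallest p, separated the groups without overlap, in opposite directions. Of the 28 genes 2 did so, and of all rows 3.7% on the higher and 1.61% on the lower side. Of the calcium and cAMP relay 17 of 36 were positive (median -0.01). Prkacb, a catalytic subunit of protein kinase A, had 8.75, 8.03, 7.92 and 7.03 RPKM in inhibitor and 5.55, 6.39, 6.52 and 6.82 RPKM in control libraries, all inhibitor libraries above all controls (adjusted p = 0.541 by limma), as were 3.7% of all rows. Sik3, a relative of SIK1, averaged 25.3 ± 1.5 RPKM in inhibitor and 28.2 ± 1.89 RPKM in control cells (SD, n = 4).

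Among 37 other activity-regulated genes 15 were positive and 22 negative (median -0.03). The 2 with the smallest p were again lower in inhibitor cells. Pim3, a growth-promoting kinase, had 12.04, 11.7, 13.0 and 11.7 RPKM in inhibitor and 19.0, 15.9, 14.3 and 13.7 RPKM in control libraries. Rasd1, a Ras-like protein induced by dexamethasone, had 12.2, 12.6, 13.1 and 11.1 RPKM in inhibitor and 18.4, 15.8, 14.8 and 13.2 RPKM in control libraries. Their groups did not overlap, and as for Arc control 1 was the highest library. In either direction 3 of the 37 genes had no overlap, against 3.7% of all rows on the higher and 1.61% on the lower side. Among 18 other feedback regulators of MAP kinases 13 were negative (median -0.03), and of 15 further AP-1 partners 11 (median -0.03). Among the feedback regulators, Rasa1, a GTPase-activating protein of Ras, averaged 23.7 ± 2.77 RPKM in inhibitor and 20.7 ± 1.93 RPKM in control cells. Lrig1, an inhibitor of EGF receptors, averaged 6.84 ± 0.921 RPKM in inhibitor and 7.65 ± 1.29 RPKM in control cells. Among the AP-1 partners Atf5, a stress factor of beta cells, averaged 129 ± 23.4 RPKM in inhibitor and 141 ± 2.48 RPKM in control cells (SD, n = 4).

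Partners of the clock members Per1 and Per2 were mixed, with 10 of 18 positive (median 0.06). Bhlhe41, a repressor of the clock, had 27.7, 27.5, 24.8 and 28.4 RPKM in inhibitor and 22.6, 21.7, 20.8 and 23.0 RPKM in control libraries. Clock, a core activator of the circadian loop, averaged 14.2 ± 0.280 RPKM in inhibitor and 12.9 ± 0.401 RPKM in control cells (SD, n = 4). In both the inhibitor libraries lay above all controls, with adjusted p of 0.541 and 0.550 by limma. These 2 of the 18 genes had no overlap, and 3.7% of all rows had none on the higher side. Of 17 partners of ZFP36 and BTG proteins in mRNA decay 10 were positive (median 0.06). Zfp36l2, a further ZFP36 paralog, averaged 15.8 ± 2.01 RPKM in inhibitor and 19.3 ± 1.69 RPKM in control cells. Cnot6, a deadenylase subunit, averaged 25.7 ± 1.60 RPKM in inhibitor and 21.9 ± 2.30 RPKM in control cells (SD, n = 4).

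The direction was also read with each library left out. The sign of the log2 fold change was the same without each of the 8 libraries in turn for 30 of the 45 members, 24 of them negative and 6 positive. With inhibitor 4 left out (the library that stood apart in Eif2s3y and Kdm5d), the median of the members was -0.12, and 0 members passed the test.

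**Figure D5:**
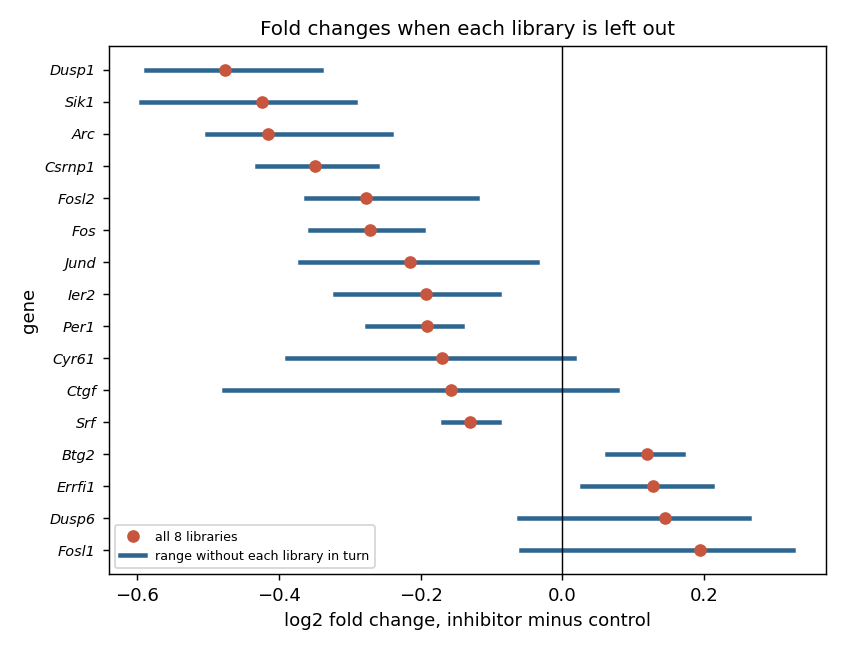
Log2 fold change (inhibitor minus control, log2(RPKM + 1) scale) of 16 members with all 8 libraries (dots) and its range over the 8 fits that leave out 1 library each (bars). Dusp1, Sik1, Arc and Csrnp1 stay below 0, while Cyr61, Ctgf, Dusp6 and Fosl1 have ranges on both sides of 0.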

How the data were processed

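mRNA was sequenced in 8 libraries, 4 with tiRNA-5 inhibitors and 4 with a control LNA. The authors deposited RPKM per gene and library, per the file headers. Build rn6 and HISAT2 2.1.0, HTSeq, STAR 2.5.3a and RSEM 1.3.0 are listed in the submitters' processing notes. Which tool gave the RPKM, with what strand setting and annotation, is not given in the sources used here. In the same table stood the authors' log2 fold change, fold and p-values, whose test is not given here. Only their p-values are quoted.

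log2(RPKM + 1) of the 10688 rows with at least 1 RPKM in at least 4 libraries entered a limma fit (version 3.58.1, R 4.3.3) with group alone, an intensity trend and two-sided tests. Benjamini-Hochberg adjusted p-values were called at 0.05. Differences on that scale are inhibitor minus control, which understates changes of low genes. Whole reads, recovered for 10692 of 10692 rows within 0.0001 of a whole number as the smallest numbers in proportion, gave depth and limma-voom. Tests were checked on simulated data. The members and lists were chosen with earlier results of these data known. All members found are named. Values per library are given for the 6 members of smallest p on either side, those without overlap and the 3 of highest level per role, and each other list names the 2 genes of smallest p, except that 1 gene of the AP-1 partners is not reported here.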

Additional observations from a re-analysis of the deposited data

Results flagged for a closer look

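In 7 of 122 groups of 4 libraries, 1 library stood apart from the rest by Dixon's criterion. It compares the gap with the range of the 4 values, so the gap can be small in RPKM. Chance exceeds it in about 1 of 20 groups, and 7 of 122 is close to that rate. Fosl2 was at 8.76 RPKM in control 2, against 5.14 to 5.42 RPKM in the other controls. Dusp6 was at 6.62 RPKM in inhibitor 4, against 4.23 to 4.35 RPKM in the other inhibitor libraries, and Btg1 at 205 RPKM, against 159 to 165 RPKM. Trib1 was at 8.38 RPKM in inhibitor 4, against 10.0 to 10.4 RPKM in the other inhibitor libraries, and at 10.0 RPKM in control 3, against 9.09 to 9.18 RPKM in the other controls. Maff was at 3.29 RPKM in inhibitor 2, against 4.71 to 4.82 RPKM in the other inhibitor libraries. Atf5 was at 145 RPKM in control 2, against 139.6 to 140.1 RPKM in the other controls.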

How the results depend on the processing

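Under 15 alternatives (pseudocount 0.1, no filter, a mean RPKM of at least 5, median-of-ratios scaling, limma-voom, the replicate block, the marker covariate and each library left out), 0 genes and 0 members passed the test. The replicate block had 4 members at an unadjusted p under 0.05 (Dusp1, Arc, Sik1 and Fos, without Csrnp1) and gave 1109 genes there, against 960 without it, and it changed no call at an adjusted p. Deviations of same-numbered libraries correlated at 0.14, -0.27, 0.32 and 0.45 for numbers 1 to 4. Differently numbered libraries correlated between -0.45 and 0.42. Inhibitor libraries 1, 3 and 4 each correlated best with the control of the same number, and inhibitor 2 with control 1. Eif2s3y was at 18.8, 6.86, 9.26 and 0.257 RPKM in inhibitor libraries 1 to 4. It was at 14.2, 6.96, 8.48 and 8.91 RPKM in control libraries 1 to 4. Whether same-numbered libraries belong together is not labelled, and no pairing was assumed. The block lowered some SEs, as of Junb (0.068, against 0.196) and Fos (0.081, against 0.126). The median log2 fold change of the members lay between -0.17 and -0.02 without each library in turn, and at -0.15 with limma-voom. Members at an unadjusted p under 0.05 numbered between 0 and 8 on the lower side without each library, and 0 on the higher side. The covariate fit had 4 members on the lower and 1 on the higher side, and 1416 of 10688 genes reached that level there in either direction. With each library left out, members without overlap numbered between 1 and 4 on the lower side (2.22% to 8.89%, against 1.77% to 4.94% of all rows) and between 0 and 1 on the higher side (0.0% to 2.22%, against 4.15% to 8.92%), and genes at an unadjusted p under 0.05 between 421 and 1272. Of 666 log2 fold changes of members under the alternatives, 630 kept their sign, and the 36 that did not belonged to 15 members. Their lowest and highest values without each library were -0.22 and 0.12 for Atf3, -0.12 and 0.0017 for Btg1, -0.48 and 0.077 for Ctgf, -0.39 and 0.016 for Cyr61, -0.053 and 0.21 for Dusp5, -0.061 and 0.26 for Dusp6, -0.059 and 0.33 for Fosl1, -0.27 and 0.013 for Gadd45b, -0.13 and 0.047 for Homer1, -0.24 and 0.056 for Ier3, -0.035 and 0.11 for Klf10, -0.020 and 0.13 for Klf6, -0.16 and 0.057 for Maff, -0.053 and 0.048 for Plk3, -0.17 and 0.11 for Rhob. With pseudocount 0.1 Atf3 was at 0.024, and with the covariate Atf3 was at 0.069, Ier3 at 0.027 and Rhob at 0.050. The cause of these changes was not tested. With 4 libraries per group, a member's log2 fold change was known to within 0.30 at the median.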
